A study of Mus musculus with 6 samples.

Results

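The transcripts of 10 cytotoxic granule and serpin genes were followed in Tregs, namely Gzma, Gzmb and Gzmk (granzymes), Prf1 (perforin), Nkg7, Srgn (serglycin), Ctsw and Lamp1 (granule or lysosomal proteins), and Serpinb9 and Serpinb6b (granzyme-inhibiting serpins). They were taken by symbol from the 13709 gene rows of a count table, and each had 1 row. The question here was how the transcripts of this machinery differed between Tregs with and without Zfp335, a zinc finger transcription factor.

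Killer lymphocytes store a set of proteins in acidic granules and release them onto a bound target cell. Perforin opens the target's membranes, and the granzymes, a family of serine proteases, pass through and cleave proteins inside it until the cell dies. Serglycin packs these proteins in the granule, and serpins in the cytosol of the killer cell trap granzymes that leak. Tregs, the CD4+ T cells that express Foxp3 and restrain other T cells, can use granzyme B and perforin against the cells they suppress.

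The transcripts were measured by bulk RNA-Seq in sorted CD4+YFP+CD25+ Tregs of C57BL/6 mice, 2 weeks old per the study's methods, with 3 samples per genotype. WT mice carried Foxp3Cre alone. KO mice, their littermates, carried Foxp3Cre and Zfp335fl/fl, so that the Cre made from the Foxp3 locus, fused to YFP, deletes the gene in cells that express Foxp3. Both genotypes thus carried the Cre and the YFP used for sorting. The study reports that KO mice develop lethal autoimmune inflammation early in life. Effects of the deletion within the Tregs and of any inflammation of the host cannot be told apart in these samples. The labels named both lymph nodes and spleen as the tissue, and whether a sample was 1 mouse or several was not stated, so p-values measure only the spread between these samples.

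Libraries held 32032631 to 40728419 counts, and levels are given as CPM, the counts of a gene relative to the scaled library total. Zfp335 itself fell to 38.6% of its WT level in KO, from 99.4 ± 4.50 to 38.3 ± 1.66 CPM (SD, n = 3 each; a log2 fold change of -1.37 with SE 0.07, edgeR adjusted p 2.14e-05). WT replicate 3 stood apart from the other WT samples. It held Foxp3 at 1190 CPM against 738.1 and 642.1 CPM, and its 10 proliferation markers summed to 737.0 CPM against 1383 and 1380 CPM. Where leaving it out moved one of the 10 genes, or a named gene of the related pathway lists, the neighbors or the genes most like Gzmb, by more than 1.5-fold, this is said with the value. To be called, a gene had to differ by more than 1.5-fold with p under 0.05 and a Benjamini-Hochberg adjusted p under 0.1.

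The sequence before the start site is shown for the granzymes and perforin, the killing proteins themselves, because all 4 genes rose in KO. Capitals mark the 7-letter T-box motif TCACACC, the Runx motif TGTGGT and the AP-1 motif TGANTCA, each read on both strands. Sequences come from RefSeq on GRCm38.p6, which mm10 denotes, and run 5′ to 3′ along the strand of the gene. They cover the 250 bases before the start site, and for Prf1 only the 165 bases that lie outside the annotated gene. Gzmb (minus strand) is chr14:56262335-56262584, Gzma (minus) chr13:113100982-113101231, Gzmk (minus) chr13:113180966-113181215 and Prf1 (plus) chr10:61297586-61297750.
Gzmb: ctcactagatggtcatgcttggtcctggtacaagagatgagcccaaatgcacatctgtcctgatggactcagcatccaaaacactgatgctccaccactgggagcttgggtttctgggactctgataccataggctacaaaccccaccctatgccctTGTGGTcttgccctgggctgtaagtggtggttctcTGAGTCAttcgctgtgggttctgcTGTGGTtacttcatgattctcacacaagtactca
Gzma: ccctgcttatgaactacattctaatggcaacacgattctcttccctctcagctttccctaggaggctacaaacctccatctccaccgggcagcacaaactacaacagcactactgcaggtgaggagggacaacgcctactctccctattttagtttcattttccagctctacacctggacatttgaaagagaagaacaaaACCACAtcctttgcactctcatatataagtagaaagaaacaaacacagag
Gzmk: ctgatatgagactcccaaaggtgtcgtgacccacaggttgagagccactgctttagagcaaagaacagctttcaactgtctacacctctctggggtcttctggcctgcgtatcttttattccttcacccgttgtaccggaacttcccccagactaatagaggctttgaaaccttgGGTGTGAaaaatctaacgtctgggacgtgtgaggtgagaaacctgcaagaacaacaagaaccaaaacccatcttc
Prf1: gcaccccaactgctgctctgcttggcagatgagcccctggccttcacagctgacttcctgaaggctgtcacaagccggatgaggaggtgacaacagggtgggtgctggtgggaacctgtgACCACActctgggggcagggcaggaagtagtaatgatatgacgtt

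No motif searched was found in all 4 stretches. Gzmb held the Runx letters at 93 to 88 and at 34 to 29 bases before its start, and the AP-1 letters between them at 58 to 52. Gzma held the Runx letters at 50 to 45 bases and Prf1 at 130 to 125 bases before the start. The start site used for Prf1, chr10:61297836, lies inside its annotated span, and the printed stretch ends 86 bases before that site. Gzmk held the T-box letters at 75 to 69 bases and no Runx match. Windows were found for 9 of the 10 genes, with 2 for Srgn, so 10 windows were searched, Ctsw having none. Runx letters were in 6 of these 10 windows and in 14% of the 32851 promoter windows of the annotation. The 6 were those of Gzma, Gzmb, Prf1, Nkg7, Lamp1 and 1 of the 2 of Srgn. Of these genes Lamp1 and Srgn were not called, and the Srgn window with the match lies inside the annotated gene. The T-box letters were in 2 of 10 (Gzmk and Nkg7) and in 3.33% of all windows, and the AP-1 letters in 1 (Gzmb) and in 6.75% of all. The STAT letters TTCNNNGAA were in 1 (Nkg7) and in 7.02% of all, and the CRE letters TGACGTCA in none and in 1.55% of all. No match overlapped another. A match is a run of letters and does not show that a factor binds there.

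Of the 10 genes, 7 rose in KO, 1 fell and 2 were not called. All 3 granzymes, perforin, Nkg7 and both serpins rose by 5.66-fold or more, and Ctsw fell. Srgn and Lamp1 differed by less than 1.5-fold, and for Srgn this was the only cutoff missed. Across the 13594 genes tested, 24.4% were called, 11.9% higher and 12.5% lower in KO. The median log2 fold change of the 10 genes was 2.89, against -0.035 over all genes tested. The KO and WT samples did not overlap for 7 genes in the direction of higher KO and for 1 in the direction of lower KO, where 26.2% and 27.6% of all genes tested did not overlap. At an adjusted p under 0.05 alone, without a fold cutoff, 38.6% of all genes passed. Tested against a fold change of 1.5 with edgeR's glmTreat, 6.92% passed as higher and 5.48% as lower. The same 8 of the 10 genes passed under either rule. In a bulk sample, a larger share of cells making a transcript and more transcript per cell cannot be told apart.

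**Figure D1:**
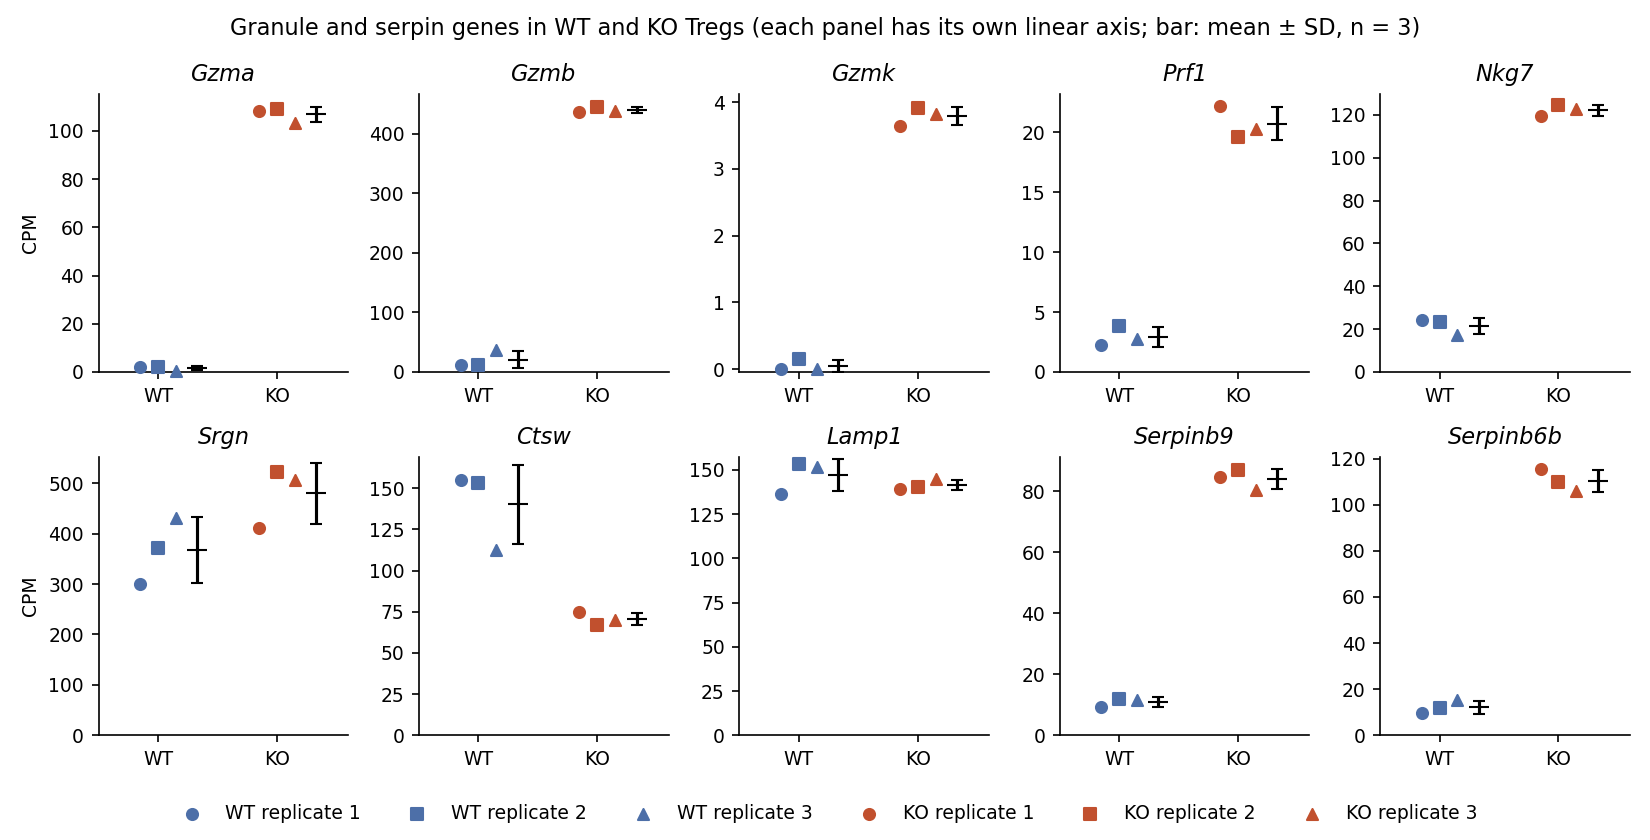
Level of each gene in the 6 samples, in CPM (linear axis from 0, or just below it where the error bar reaches there); symbols are samples, and bars give the mean ± SD of 3. For Gzmb the KO samples lie between 437.1 and 446.0 CPM and the WT samples between 12.06 and 36.77 CPM, while for Srgn and Lamp1 the samples of both genotypes overlap.

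Gzmb (chr14:56258836-56262334), which cleaves proteins after aspartate and sets off caspases, was at 12.06, 12.21 and 36.77 CPM in WT replicates 1 to 3 and at 437.1, 446.0 and 438.3 CPM in KO replicates 1 to 3. The KO samples lay close together, and WT replicate 3 was 3.03 times the mean of the other WT samples. Gzmb averaged 20.4 ± 14.2 CPM in WT and 440.5 ± 4.83 CPM in KO and rose by 4.44 on the log2 scale (SE 0.45, edgeR adjusted p 0.000316). Without WT replicate 3 the log2 fold change was 5.18.

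Gzma (chr13:113093824-113100981), a granzyme that cleaves after basic residues, was at 1.96, 1.98 and 0.511 CPM in WT and at 108.3, 109.0 and 103.1 CPM in KO. Here WT replicate 3 was the lowest sample, at 0.260 times the mean of the other WT samples, the opposite of its place for Gzmb. Gzma rose by 6.16 on the log2 scale (SE 0.36, edgeR adjusted p 2.86e-05), from a WT mean of 1.48 ± 0.841 to 106.8 ± 3.21 CPM. The log2 fold change was 5.76 without WT replicate 3. The annotated span of Gzma lies inside that of Cdc20b, and reads of overlapping genes cannot be told apart where counting ignores strand.

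Gzmk (chr13:113171630-113180965), another granzyme that cleaves after basic residues, lies 70649 bases from Gzma and was near the limit of detection in WT. It had 0, 5 and 0 counts in WT and 133, 157 and 135 counts in KO, or 0.0507 ± 0.0879 against 3.79 ± 0.137 CPM. The ratio of the summed counts, scaled by depth, was 78.2, with a 95% exact interval of 33.2 to 242.0 that covers counting error only. The fit gave a log2 fold change of 6.18 (SE 0.83, edgeR adjusted p 0.00104), which moved between 5.58 and 10.11 when 1 sample was left out, the highest value being without WT replicate 2, the only WT sample with a count.

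Prf1 (chr10:61297751-61304684), which forms the pore, was at 2.23, 3.81 and 2.73 CPM in WT and at 22.3, 19.6 and 20.3 CPM in KO. The genotypes were well separated, and WT replicate 3 was in the middle of the WT samples. Prf1 rose 7.10-fold (WT 2.92 ± 0.806, KO 20.7 ± 1.36 CPM), or by 2.83 on the log2 scale (SE 0.21, edgeR adjusted p 7.38e-05).

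Nkg7 (chr7:43437138-43438246) encodes a membrane protein of the granule that cytotoxic cells need to degranulate well. It was at 24.2, 23.2 and 17.3 CPM in WT and at 119.5, 124.4 and 122.6 CPM in KO, so that every KO sample was far above every WT sample. Its mean rose 5.66-fold (WT 21.6 ± 3.73, KO 122.1 ± 2.48 CPM), or by 2.50 on the log2 scale (SE 0.13, edgeR adjusted p 1.76e-05).

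The packing protein and the lysosomal membrane protein of the set were not called. Srgn (chr10:62493833-62527445), the proteoglycan core that holds granzymes in the granule, was at 301.1, 370.6 and 430.6 CPM in WT and at 410.3, 522.9 and 506.1 CPM in KO. WT replicate 3 was above KO replicate 1. The KO mean was 1.31 times the WT mean (479.8 ± 60.7 against 367.4 ± 64.8 CPM, a log2 fold change of 0.39 with SE 0.15, edgeR adjusted p 0.0696), under the fold cutoff. Without WT replicate 3 the log2 fold change was 0.51 (edgeR adjusted p 0.000446), still under that cutoff.

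Lamp1 (chr8:13159161-13175338) encodes a lysosomal membrane protein that reaches the cell surface when granules are released. Its levels were 136.6, 153.2 and 151.9 CPM in WT and 139.3, 140.1 and 144.6 CPM in KO, and the KO samples all lay within the WT range. It had a log2 fold change of -0.06 (SE 0.07, edgeR adjusted p 0.543), which stayed between -0.11 and -0.03 in the alternative fits.

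Ctsw (chr19:5465043-5468628), a cysteine protease known from NK and CD8 T cells, was the member that fell. It was at 155.1, 153.1 and 112.5 CPM in WT and at 74.7, 67.2 and 69.7 CPM in KO, with WT replicate 3 between the other WT samples and the KO samples. KO held 50.3% of the WT level (70.6 ± 3.82 against 140.2 ± 24.0 CPM, a log2 fold change of -0.99 with SE 0.13, edgeR adjusted p 0.000835). Without WT replicate 3 the log2 fold change was -1.13. The annotated span of Ctsw overlaps that of Fibp, which had a log2 fold change of -0.21 (edgeR adjusted p 0.101) and was not called.

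Serpinb9 (chr13:32997061-33017955), the inhibitor of granzyme B, was at 9.18, 12.0 and 11.6 CPM in WT and at 84.5, 87.0 and 80.3 CPM in KO. Both genotypes were tight, and no WT sample reached a KO value. It rose 7.69-fold (WT 10.9 ± 1.52, KO 84.0 ± 3.39 CPM), or by 2.94 on the log2 scale (SE 0.12, edgeR adjusted p 7.11e-06).

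Serpinb6b (chr13:32956811-32979067), an inhibitor of granzyme A, lies next to Serpinb9 with 17994 bases between them. Its levels were 9.67, 11.6 and 15.2 CPM in WT and 115.5, 109.8 and 106.0 CPM in KO. The WT samples were again far below the KO samples, WT replicate 3 being the highest of them. Serpinb6b rose 9.09-fold (WT 12.2 ± 2.79, KO 110.4 ± 4.76 CPM), or by 3.18 on the log2 scale (SE 0.16, edgeR adjusted p 1.71e-05). The value of Serpinb6b is the less certain one of the pair, because 3.12% of the 50-base words of its transcript also occur in Serpinb6c, Gm8436 or Serpinb6a. For Serpinb9 that share was 0.38%, with Serpinb9b, and for the other 8 genes it was 0.

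Without WT replicate 3, the log2 fold changes of Gzmk, Prf1, Nkg7, Serpinb9 and Serpinb6b were 5.64, 2.79, 2.36, 2.99 and 3.37, and all 5 genes were still called.

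**Figure D2:**
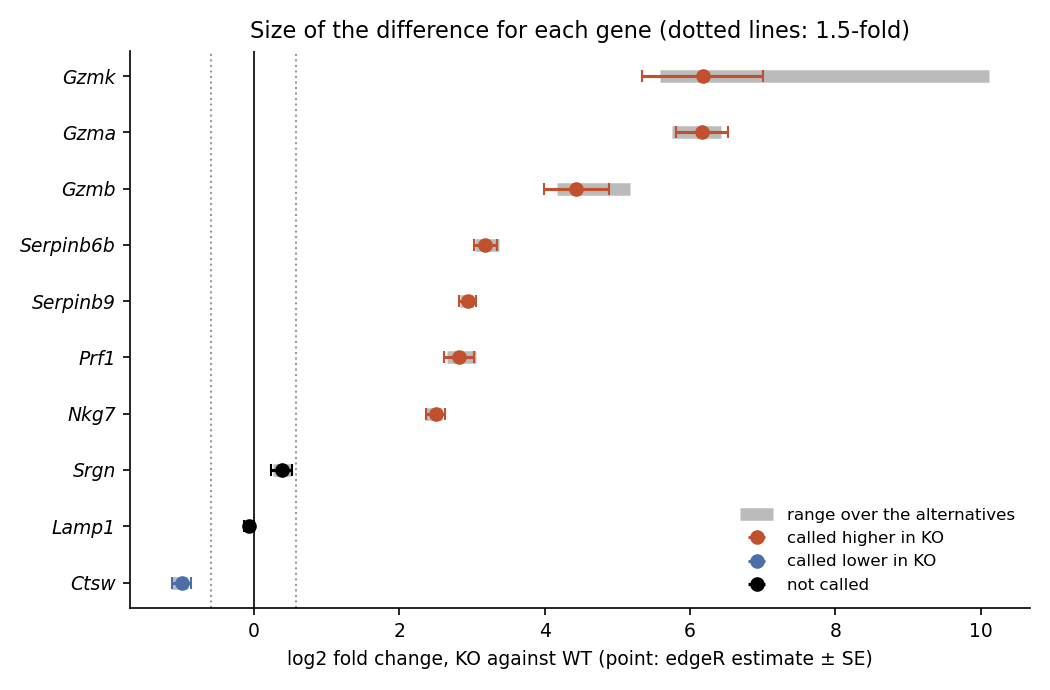
Log2 fold change of KO against WT for each gene (point, edgeR estimate; thin bar, ± SE; grey band, range over the alternative fits; dotted lines, the 1.5-fold cutoff). Gzmk and Gzma lie furthest right at 6.18 and 6.16, with the widest band for Gzmk (5.58 to 10.11), and Srgn and Lamp1 lie between the dotted lines.

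Levels of different genes were compared as CPM per kb of transcript, the length being that of the longest annotated protein-coding transcript of the gene. In WT the order was led by Srgn at 212.8 ± 37.5, Ctsw at 113.0 ± 19.4 and Lamp1 at 66.1 ± 4.13 CPM per kb. Nkg7 followed at 24.5 ± 4.23 and Gzmb at 14.2 ± 9.90, and these neighbors overlapped between samples. The serpins came next, with Serpinb6b at 5.54 ± 1.27 and Serpinb9 at 3.15 ± 0.439 CPM per kb. Gzma at 1.49 ± 0.845 and Prf1 at 1.18 ± 0.326 overlapped, and Gzmk was last at 0.0389 ± 0.0674 CPM per kb.

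In KO the order was led by Gzmb. It reached 306.7 ± 3.37 CPM per kb, above Srgn at 277.8 ± 35.2, with every Gzmb sample above every Srgn sample. Nkg7 at 138.6 ± 2.82 and Gzma at 107.2 ± 3.22 came next, ahead of Lamp1 at 63.4 ± 1.28 and Ctsw at 56.9 ± 3.08 CPM per kb. Serpinb6b at 50.4 ± 2.17, Serpinb9 at 24.2 ± 0.976, Prf1 at 8.38 ± 0.549 and Gzmk at 2.91 ± 0.105 CPM per kb closed the list, and no neighbors in this order overlapped. Gzma thus moved from place 8 to place 4, and Ctsw from place 2 to place 6. The lead of Gzmb over Srgn rests on the transcript lengths used. In CPM the KO mean of Srgn was the higher one, at 479.8 ± 60.7 against 440.5 ± 4.83 for Gzmb.

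**Figure D3:**
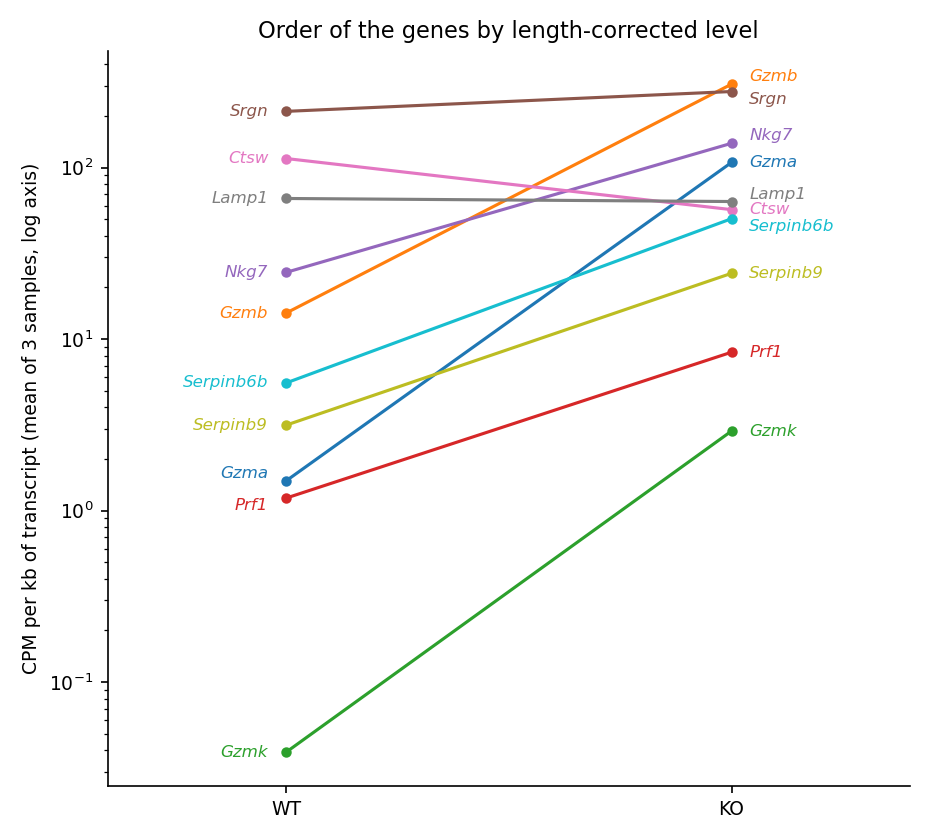
Mean level of each gene over 3 samples in WT (left) and KO (right), in CPM per kb of transcript on a log axis; each line joins the same gene. Gzmb goes from place 5 at 14.2 to place 1 at 306.7 CPM per kb, and Ctsw goes from 113.0 down to 56.9 CPM per kb.

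The fitted rises of the serpins were smaller than those of the proteases they inhibit. Per kb of transcript, Gzmb was 3.18, 2.46 and 7.67 times Serpinb9 in WT and 12.5, 12.4 and 13.2 times Serpinb9 in KO. Gzma was 0.445, 0.375 and 0.0741 times Serpinb6b in WT and 2.07, 2.19 and 2.14 times in KO. Per kb, the protease thus passed the inhibitor in every KO sample and in no WT sample. This crossing rests on the transcript lengths used. In CPM, Gzma stayed below Serpinb6b in every KO sample, at 108.3, 109.0 and 103.1 against 115.5, 109.8 and 106.0. The same per kb ratio of Gzmb to Prf1 was 9.33, 5.53 and 23.2 in WT and 33.8, 39.1 and 37.2 in KO. For each of these 3 ratios the genotypes did not overlap, and WT replicate 3 was nearest to KO for Gzmb and furthest from it for Gzma. The ratio of the serpins to each other overlapped between genotypes, Serpinb9 being 0.600, 0.652 and 0.483 times Serpinb6b per kb in WT and 0.462, 0.501 and 0.479 times in KO. These ratios are descriptions of transcripts and were not tested.

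Lists of other genes of the pathway were set beside the 10 genes. Of 20 other granzymes and granule proteins listed, 14 had a row, and 8 of the 14 were called (57.1%, against 24.4% of all genes), 6 higher and 2 lower in KO, and their median log2 fold change was 0.65. Ctsc, which removes the propeptide of granzymes, rose by 0.90 on the log2 scale (SE 0.09, edgeR adjusted p 0.000232), and the lysosomal protease Ctsd by 1.01 (SE 0.07, edgeR adjusted p 5.27e-05). Calr, a chaperone that binds perforin, rose by 0.81 (SE 0.08, edgeR adjusted p 0.000362). The death ligands went in opposite directions on the log2 scale, Fasl up by 1.91 (SE 0.20, edgeR adjusted p 0.000376) and Tnfsf10, which encodes TRAIL, by -0.78 (SE 0.07, edgeR adjusted p 0.000235). Igf2r, a mannose 6-phosphate receptor that carries granzymes to granules, had a log2 fold change of -1.05 (SE 0.07, edgeR adjusted p 4.36e-05), while the other such receptor, M6pr, was not called at 0.33 (edgeR adjusted p 0.00581).

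Of the less common granzymes, Gzmm rose by 1.35 on the log2 scale (SE 0.33, edgeR adjusted p 0.0148). Gzmc was at 0.625, 1.22 and 4.66 CPM in WT and at 9.74, 7.99 and 8.03 CPM in KO, and rose by 1.99 on the log2 scale (SE 0.63, edgeR adjusted p 0.0383). WT replicate 3 again lay nearest to KO, and without it the log2 fold change of Gzmc was 3.23, while without WT replicate 2 or KO replicate 1 Gzmc was not called (edgeR adjusted p 0.109 and 0.114). The cathepsin inhibitor Cst7, Ctsh, Ctsl, Lamp2 and Cd63 were not called.

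The genes that move and fuse granules were mostly not called. Of 22 listed, 21 were tested and 3 called (14.3%, against 24.4% of all genes), with a median log2 fold change of 0.05. Sytl3, which encodes a partner of Rab27 proteins, was at 4.43, 2.98 and 8.95 CPM in WT and at 83.5, 78.0 and 73.3 CPM in KO, and rose by 3.84 on the log2 scale (SE 0.35, edgeR adjusted p 0.000208). Lyst, needed for normal lysosome size and granule release, rose by 0.91 (SE 0.08, edgeR adjusted p 0.000153), and the Rab11 partner Rab11fip3 was lower at a log2 fold change of -0.75 (SE 0.11, edgeR adjusted p 0.00149). The fusion proteins Unc13d, Rab27a, Stx11 and Stxbp2 had log2 fold changes of 0.14, 0.27, -0.33 and -0.12 and were not called (edgeR adjusted p 0.250, 0.129, 0.0672 and 0.303).

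Of 32 other serpins listed, 10 had a row and 9 were tested, of which 4 were called, all higher in KO (44.4%, against 24.4% of all genes, or 11.9% in that direction), with a median log2 fold change of 0.53. The deposited counts held no gene summing to less than 60, a sum that Serpinb9b and Serpinb1b reached only through KO. For these genes a rise was close to fixed in advance, and the share called higher rests partly on them. Serpinb9b, a relative of Serpinb9 with a gap of 9459 bases to it, rose by 4.23 (SE 0.58, edgeR adjusted p 0.00115). WT replicate 2 held 13 of its WT counts, against 3 in each of the other WT samples, and without it the log2 fold change of Serpinb9b was 5.32. Serpinb1b had 1 count in WT and 78 in KO, a depth-scaled ratio of 71.8 with a 95% exact counting interval of 12.5 to 2870, and that 1 count was in WT replicate 3. Without that sample the log2 fold change of Serpinb1b went from 5.74 to 7.68, with no WT count left. Serpini1 rose by 1.05 (SE 0.22, edgeR adjusted p 0.00785). Serpina3f passed narrowly at 1.91 (SE 0.75, edgeR adjusted p 0.0811) and was lost in 7 of the 15 alternative fits, while without WT replicate 3 its log2 fold change was 3.39. Several serpins were high in WT replicate 3, such as Serpina3g at 14.2, 16.6 and 58.3 CPM in WT and 42.3, 37.8 and 34.5 CPM in KO, and without that sample 7 of the 9 were called.

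Of 21 listed transcriptional regulators of cytotoxic genes, 20 were tested and 10 called (50%, against 24.4% of all genes), 7 higher and 3 lower in KO, and their median log2 fold change was 0.09. The T-box factor Eomes was at 1.90, 1.80 and 3.24 CPM in WT and at 11.6, 11.1 and 11.4 CPM in KO, and rose by 2.29 on the log2 scale (SE 0.25, edgeR adjusted p 0.000437). The other T-box factor of the list, Tbx21, had a log2 fold change of 3.69 (SE 0.10, edgeR adjusted p 1.31e-06). Zeb2, a repressor active in terminal effector T cells, rose by 3.04 (SE 0.19, edgeR adjusted p 4.17e-05), and Id2, an inhibitor of E proteins, by 2.51 (SE 0.24, edgeR adjusted p 0.000252). The regulators Id3, Bcl6 and Tcf7, known from memory-like and follicular T cells, were called lower, with log2 fold changes of -2.40 (edgeR adjusted p 0.000125), -1.51 (edgeR adjusted p 0.00289) and -0.69 (edgeR adjusted p 0.000375). Prdm1, which encodes Blimp-1, was at 27.0, 26.5 and 59.1 CPM in WT and 42.2, 35.5 and 40.9 CPM in KO and was not called (edgeR adjusted p 0.867).

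**Figure D4:**
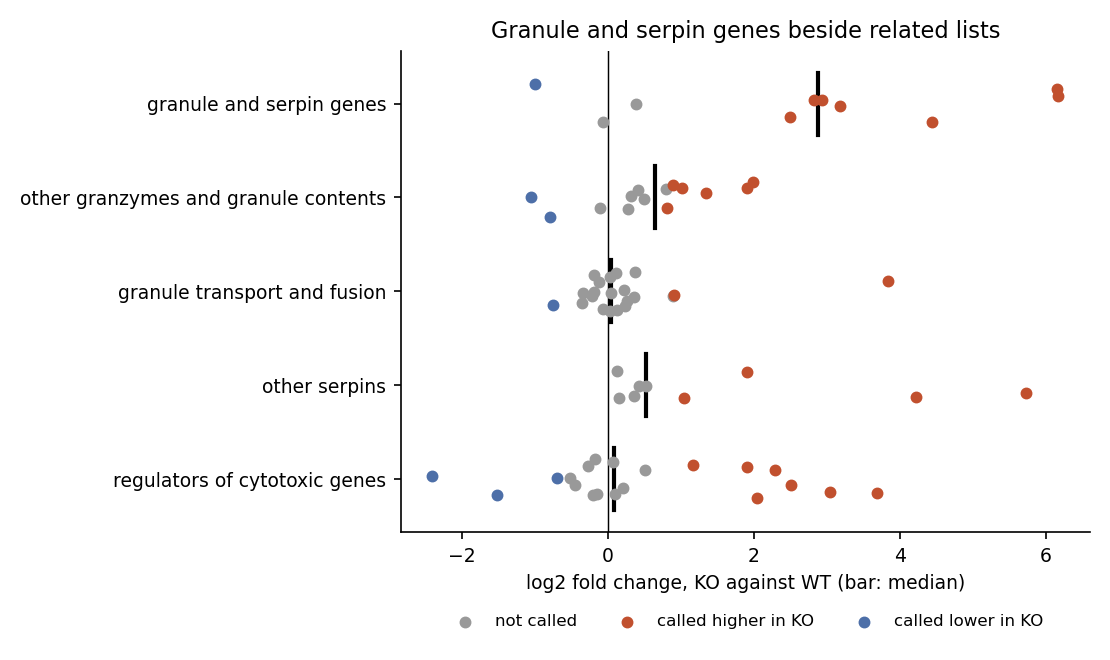
Log2 fold change of KO against WT for each tested gene of the 10 granule and serpin genes and of 4 related lists (red, called higher; blue, called lower; grey, not called; black bar, median; vertical spread within a row has no meaning). The median is 2.89 for the granule and serpin genes and 0.05 for granule transport and fusion, where Sytl3 at 3.84 stands alone.

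Counting both directions together, genes near the 10 genes were called about as often as all genes. Within 100 kb of them 41 other genes were tested, of which 10 were called, 24.4% as in all genes, with a median log2 fold change of 0.13. Of these 10, 8 were higher and 2 lower in KO, where 11.9% and 12.5% of all genes were called higher and lower. All 8 lay near genes of the set that rose themselves, and none near Srgn, Ctsw or Lamp1. The 41 genes were spread unevenly over the set, Ctsw having the most neighbors and Gzmb only Gzmc. Whether position played a part was not tested. The 8 that rose included both serpins already named, Gzmc at 17189 bases from Gzmb, and Cdc20b, which was at 0 in every WT sample and at 1.37, 0.722 and 1.14 CPM in KO, at least 11.8-fold higher than 3 counts per library would give (edgeR adjusted p 0.00183). How much of the Cdc20b count came from reads of Gzma was not tested. Esm1, at 28694 bases from Gzmk, had 7 counts in WT and 671 in KO, a depth-scaled ratio of 88.2 with a 95% exact counting interval of 42.6 to 220.2. WT replicate 3 held 5 of those 7 counts, and without it the log2 fold change of Esm1 went from 6.39 to 7.54. Cldnd2 and Siglecf near Nkg7 and Adamts14 near Prf1 also rose, at log2 fold changes of 1.63, 3.35 and 3.29, from at most 0.913 CPM in any WT sample. The value of Siglecf was 4.95 without WT replicate 3, and Cldnd2 was not called without KO replicate 3 (edgeR adjusted p 0.125) or when tested against a fold change of 1.5 (edgeR adjusted p 0.151). Snx32 near Ctsw and Iglon5 near Nkg7 were called lower at -0.84 and -1.34, the latter with overlapping samples and an edgeR adjusted p of 0.0931. Iglon5 was at -0.75 and not called without WT replicate 2 (edgeR adjusted p 0.310).

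Among the 9881 genes whose mean reached 5 CPM, Plac8, Havcr2 and Tgm2 had the pattern over the 6 samples most like that of Gzmb. The measure was the Euclidean distance of centred log2 CPM, and it was 0.606, 0.630 and 0.904. Plac8 was at 1.74, 1.77 and 4.75 CPM in WT and 45.8, 44.3 and 44.7 CPM in KO. Havcr2, which encodes the receptor TIM-3, was at 3.12, 2.86 and 11.9 CPM in WT and 100.1, 86.6 and 85.1 CPM in KO. Tgm2, a transglutaminase, was at 4.92, 3.75 and 6.43 CPM in WT and 116.4, 106.7 and 113.9 CPM in KO. As for Gzmb, WT replicate 3 was the highest WT sample of all 3 genes. Because the distance took in all 6 samples, this likeness follows in part from how the genes were chosen. Without WT replicate 3 the log2 fold change went from 4.03 to 4.67 for Plac8 and from 3.93 to 4.91 for Havcr2.

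Granule genes are also made by other cells, so marker lists were set beside them. For comparison with the counts of called markers, 11.9% of all genes tested were called higher and 12.5% lower in KO. Treg markers summed to 3599 to 5026 CPM in WT and 2832 to 2883 CPM in KO, and 3 of 7 (Foxp3, Ikzf2 and Nrp1) were called lower. The T cell markers summed to 2887 to 3275 and 2477 to 2505 CPM, and 2 of 6 were called lower, Cd3d at a log2 fold change of -0.59 and Cd5 at -0.88 (edgeR adjusted p 0.000944 and 5.88e-05). Foxp3 and Cd4, which define the labelled cells, were present in every sample, at 459.7 CPM or more. The CD8 T cell markers Cd8a and Cd8b1 summed to 9.32 to 13.2 CPM in WT and 12.0 to 12.7 CPM in KO. Cd8a was at 2.31, 1.005 and 2.25 CPM in WT and 4.11, 2.86 and 4.17 CPM in KO and was called higher (edgeR adjusted p 0.0665), while Cd8b1 was not called.

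NK cell markers, of which 8 of 10 had a row, summed to 6.71 to 19.95 CPM in WT and 26.4 to 31.5 CPM in KO. Of the 8, 5 were called higher (62.5%, against 11.9% of all genes), namely Klri2, Klre1, Eomes, Klrb1c and Tyrobp. Eomes is also in the list of regulators. Klri2, an NK receptor gene, was at 0.0815, 0 and 0 CPM in WT and 2.13, 3.11 and 1.84 CPM in KO (edgeR adjusted p 0.00106). Klre1, Klrb1c and Tyrobp had log2 fold changes of 2.46, 1.08 and 0.99 (edgeR adjusted p 0.0198, 0.0556 and 0.0465). Ncr1, which encodes the NK receptor NKp46, was at 0.543, 0.487 and 0.120 CPM in WT and 0.876, 0.697 and 1.25 CPM in KO, without overlap, and was not called at a log2 fold change of 1.28 (edgeR adjusted p 0.130). Fcer1g was at 0.299, 0.670 and 5.53 CPM in WT and 4.33, 5.65 and 4.85 CPM in KO and was not called. Khdc1a went the other way, at a log2 fold change of -1.09 with overlapping samples, and was not called (edgeR adjusted p 0.250). Myeloid markers summed to 28.7 to 35.6 CPM in WT and 89.5 to 99.8 CPM in KO, with 8 of 10 called higher (80%, against 11.9% of all genes). Of these, S100a8 and S100a9 were at 0 in every WT sample and had a row through their KO counts alone. In single-cell data of younger mice, the study reports S100a8 and S100a9 as high in a Treg cluster that accumulated in KO. Of 9 mast cell and basophil markers 2 had a row, Kit and Hdc, with sums of 21.6 to 31.5 CPM in WT and 59.1 to 63.9 CPM in KO, and Hdc was called higher. B cell markers summed to 21.7 to 25.7 and 20.9 to 22.5 CPM, with 1 of 7 called in each direction, and 3 markers of gamma delta T cells to 1.74 to 2.20 and 1.29 to 1.89 CPM, with edgeR adjusted p values of 0.152 or more. The 10 proliferation markers were all called higher, with sums of 737.0 to 1383 CPM in WT and 3677 to 3833 CPM in KO. The part of the NK cell, CD8 T cell, myeloid and proliferation markers in the rise of the granule genes was not tested.

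**Figure D5:**
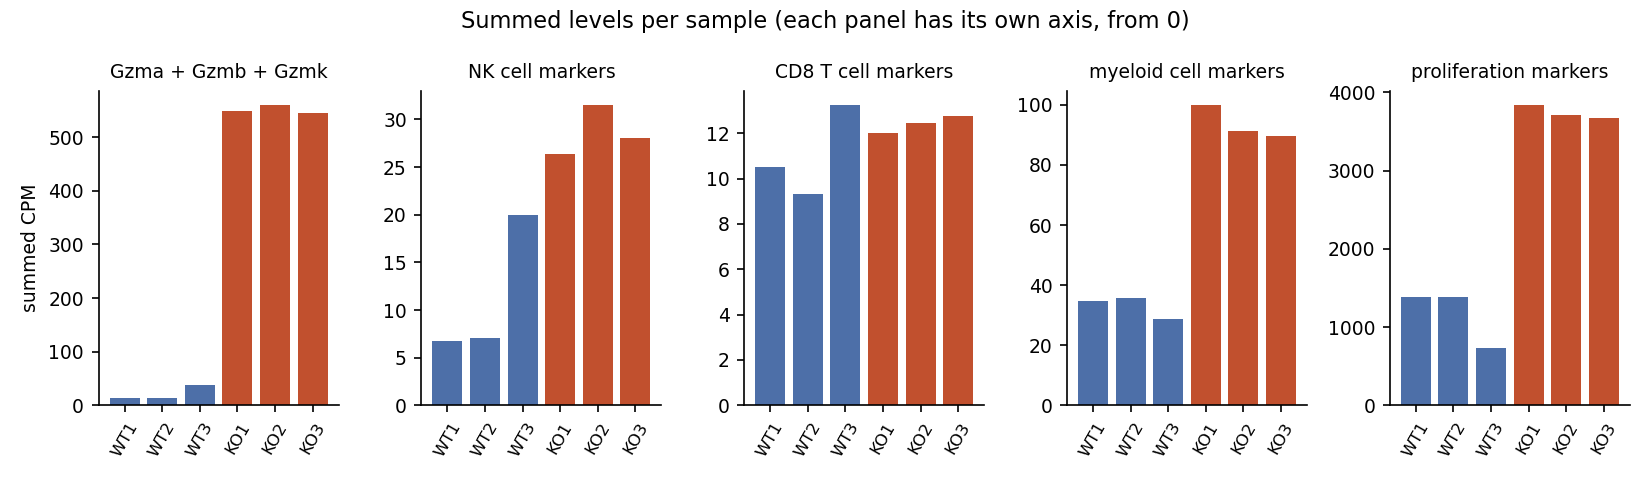
Summed level in each sample, in CPM on linear axes from 0 that differ between panels, of the 3 granzymes and of 4 marker lists (blue, WT; red, KO). The granzyme sum goes from 14.0, 14.3 and 37.3 CPM in WT to 545.2 to 558.9 CPM in KO. The sum of the CD8 markers overlaps between genotypes, and the sums of the NK cell, myeloid and proliferation markers are higher in every KO sample.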

How the data were processed

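RNA-Seq of 3 WT and 3 KO Treg samples was analyzed. According to the methods, SOAPnuke removed poor reads, HISAT2 aligned the rest to mm10 with 1 alignment per read, and StringTie quantified genes. The submitters' processing notes also name DESeq2. The authors deposited 1 table of whole-number counts per gene, not normalized. How these counts were made, and whether strand was used, is not given in the sources used here. No gene in it summed to less than 60 over the 6 samples, so rarer genes were already missing. Genes near 0 in WT, such as Gzmk, Serpinb1b, Serpinb9b, Esm1, Cdc20b and Klri2, thus had a row only through their KO counts. Totals were 32032631 to 40728419 counts, and 3 counts, taken as the floor, correspond to 0.0747 to 0.0913 CPM. Intervals and floors cover only counting error, because reads copied by PCR do not count separate molecules.

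Groups and replicate numbers came from the sample titles. KO was compared with WT over all 6 samples in R 4.3.3 with edgeR 4.0.16 (filterByExpr at a minimum count of 10, TMM scaling, quasi-likelihood F-test with no covariate, two-sided, Benjamini-Hochberg adjustment over 13594 genes). A call needed a fold change above 1.5, p under 0.05 and adjusted p under 0.1, after the study's cutoffs. SE values of log2 fold changes were derived from the F statistic. CPM values use TMM-scaled totals and are given as mean ± SD. Transcript lengths and shared 50-base words came from GENCODE M21, with the longest protein-coding transcript taken for each gene. Positions and promoters came from RefSeq on GRCm38.p6. Of the symbols in the table, 99.94% were in RefSeq. The scripts were tested on simulated data.

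The 10 genes and all lists were chosen with earlier results of these data known. Named genes are these 10, Zfp335, the called genes of each related list (the 4 largest rises and falls with a mean of at least 1 CPM where over 8 were called), called genes within 100 kb, the 3 genes nearest to Gzmb, and marker genes. M6pr, Cst7, Ctsh, Ctsl, Lamp2, Cd63, Unc13d, Rab27a, Stx11, Stxbp2, Serpina3g, Prdm1 and Fibp were added after their values were seen. Alternatives were DESeq2 1.42.0, limma 3.58.1 (voom with sample quality weights), RLE scaling, library totals alone, other filters, other cutoffs, a replicate block and leaving out each sample.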

Additional observations from a re-analysis of the deposited data

How the results depend on the processing

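All 10 granule and serpin genes kept their direction in each of the 15 alternative fits that tested them, and none changed between called and not called. Where each sample had to hold at least 10 counts, Gzmk was not tested and 7 genes were called, and otherwise 8 were. Their median log2 fold change stayed between 2.75 and 3.04, and the median over all genes between -0.074 and -0.011. For 33 other named genes, 466 values kept call and sign, 22 lost their call and none changed sign. Leaving out 1 sample gave 2867 to 3667 genes called in all, 7 to 11 in the list of other granule proteins (11 without WT replicate 3) and 3 to 7 other serpins. Judged by an adjusted p under 0.05 alone, 5244 genes passed (2610 higher and 2634 lower), with 7 genes of granule transport and 19 neighbors. With edgeR's test against a fold change of 1.5 (glmTreat), 1686 passed (941 higher and 745 lower), with 6 neighbors, and Gzmc, Rab11fip3, Serpina3f, Tcf7, Snx32, Cldnd2 and Iglon5 lost their calls. With at least 10 counts in every sample, 2 other serpins and 3 neighbors were called, fewer genes being tested. The median of the other serpins was 1.19 with voom, 1.05 with the replicate block and 1.31 without WT replicate 3. Same-numbered samples were hardly correlated, at 0.038, 0.040 and -0.012, while 4 of 6 samples were closest to their own number. With so few samples these values cannot settle whether the numbers mark pairs. With the replicate block, 3190 genes were called, 3100 of them shared, the same 8 of the 10 genes were called, and Iglon5 lost its call (log2 fold change -1.23, edgeR adjusted p 0.131). The depth limits Gzmk, Serpinb1b, Esm1 and Cdc20b, which had 0 to 7 counts over the WT samples.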
